A study of Homo sapiens with 40 samples.

Results

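The genes described here are 40 genes of the BRCA, Fanconi anemia and homologous recombination pathways, chosen by symbol from a list of named genes among the 60708 genes of the count tables. All 40 were found once each by their GENCODE names, and all 40 passed the filter on low counts in each of 7 comparisons. RNA-seq was available from 24 libraries in 8 groups of 3. MI-spheres are 3D cultures of MCF-10A, a non-malignant human mammary epithelial line, and MII-spheres are 3D cultures of its HRAS-transformed derivative MCF-10AneoT; both grew in ultra-low attachment plates and were left unstimulated (Ctrl) or received 2.5 ng/ml TGFβ1 for 16 h (TGFβ). The other 12 libraries came from MDA-MB-231, a triple-negative breast cancer line grown as a monolayer. No TGFβ treatment is given for these libraries. They were labelled WT, SLUG KO (CRISPR/Cas9 targeting of exon 1 of SNAI2, the gene of SLUG, with colonies grown from single cells), Csi (scrambled control siRNA) and siSMAD2/3/4 (siRNAs against all 3 SMADs). How many knockout clones stand behind the SLUG KO libraries is not given in the sources used here, and each sphere line is a single cell line. The labels call the 3 libraries of a group biological replicates, so the p-values below measure the spread between those libraries.

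Homologous recombination repairs a DNA double-strand break by copying the sister chromatid, which is present only after the DNA has been replicated. MRE11, RAD50, NBN, RBBP8 and EXO1 trim the broken ends to single strands, BRCA1-BARD1, PALB2 and BRCA2 prepare these strands for the search of a template, and RAD51B, RAD51C, RAD51D, XRCC2, XRCC3 and the RAD54 proteins take part in pairing them with it. The Fanconi core complex attaches ubiquitin to the FANCD2-FANCI clamp at crosslinked DNA, BLM with RMI1 and RMI2 dissolves joined molecules, and ATM, ATR, CHEK1 and CHEK2 are the kinases that signal the damage. Many of these genes are transcribed most strongly in S phase, and inherited loss of BRCA1, BRCA2 or PALB2 predisposes to breast cancer.

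Total counts ranged from 14124688 to 38406952 per library. WT replicate 2 stood apart from the other WT libraries: the chi-square between their counts was 235 and 288 per gene, against 18.0 between WT replicates 1 and 3 and 1.92 to 13.1 between replicates of the other 7 groups. The main SLUG KO results are therefore also given without that library. HRAS was higher in unstimulated MII- than MI-spheres (log2 fold-change 2.45). SMAD2, SMAD3 and SMAD4 were lower in siSMAD2/3/4 than in Csi libraries (-1.92, -0.69 and -1.72). SNAI2 RNA went against the knockout label: it stood at 30.2, 20.9 and 33.7 CPM (counts scaled to library size) in WT and at 63.6, 57.8 and 64.3 CPM in the libraries labelled SLUG KO (log2 fold-change 1.10, edgeR adjusted p = 0.044; 0.94, adjusted p = 6.34e-07, without WT replicate 2). Leaving out any other of the 6 libraries kept the direction but ended the call (adjusted p = 0.0695 to 0.239). An edit inside exon 1 need not lower the RNA, so this value does not check the knockout, which the study examined by droplet PCR and immunoblotting. Of the markers checked, 4 general epithelial genes summed to 1749 to 1781 CPM in MI Ctrl and 938 to 1213 CPM in WT libraries. Of these the keratin KRT8 stayed high in WT (502.8, 705.4 and 598.2 CPM), and the cadherin CDH1 did not (527.4, 532.7 and 521.7 CPM in MI Ctrl, 1.54, 0.746 and 1.41 CPM in WT). The 5 basal genes summed to 1872 to 1933 CPM in MI Ctrl, 197 to 664 CPM in WT and 367 to 428 CPM in SLUG KO, most of it in WT from the integrin ITGB4 (198.5, 661.6 and 194.8 CPM), while KRT5 was at 0 in all WT and SLUG KO libraries. The 4 leukocyte markers summed to at most 0.738 CPM in any library. Other marker lists were not as low. The 3 endothelial genes summed to 31.3 to 34.5 CPM in MI Ctrl and 114 to 117 CPM in MII Ctrl libraries. The 4 mesenchymal genes summed to 56.3 to 62 CPM in MI Ctrl and 1612 to 1678 CPM in WT. The 3 fibroblast genes summed to 6.5 to 8.42 CPM in MI Ctrl and 116 to 122 CPM in siSMAD2/3/4. The 4 luminal hormone receptor genes summed to 123 to 126 CPM in MI Ctrl and 4.25 to 14.3 CPM in WT.

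Promoters of the members are shown first, because many of the 40 genes moved together with TGFβ. RefSeq promoter windows of the GRCh38.p14 build, from 250 bases before to 50 bases after a transcription start, were found for 36 of the 40 genes, in 48 windows; RAD54B, FANCI, NBN and RMI2 had no entry. The E2F motif, bound by the E2F factors of the cell cycle, was searched on both strands as TTTCCCGC, TTTCGCGC, TTTGGCGC or TTTGCCGC. It matched 6 of 48 member windows (12.5%, 95% Wilson interval 5.86 to 24.7%) and 3.31% of all 35116 windows. Some of the 36 genes have several windows, which are not independent. The Wilson intervals here and below treat them as independent, so they are likely too narrow and are no test. Those 6 windows belonged to EXO1, FANCA, FANCC, FANCD2, RMI1 and XRCC2. All 6 are shown 5′ to 3′ in the direction of transcription, with each E2F match in capitals. EXO1, XRCC2, FANCD2, FANCA and RMI1 rose with TGFβ in MII-spheres, and FANCC, which holds 2 matches, did not. Of all 40 members 29 were called higher there, and whether a match goes with the rise was not tested.
EXO1: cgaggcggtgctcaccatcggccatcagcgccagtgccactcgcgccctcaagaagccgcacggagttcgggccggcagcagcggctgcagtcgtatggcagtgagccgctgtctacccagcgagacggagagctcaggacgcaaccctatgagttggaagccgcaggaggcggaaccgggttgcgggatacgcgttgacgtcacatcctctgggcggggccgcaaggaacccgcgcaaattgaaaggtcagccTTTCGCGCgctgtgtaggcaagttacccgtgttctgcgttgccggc
XRCC2: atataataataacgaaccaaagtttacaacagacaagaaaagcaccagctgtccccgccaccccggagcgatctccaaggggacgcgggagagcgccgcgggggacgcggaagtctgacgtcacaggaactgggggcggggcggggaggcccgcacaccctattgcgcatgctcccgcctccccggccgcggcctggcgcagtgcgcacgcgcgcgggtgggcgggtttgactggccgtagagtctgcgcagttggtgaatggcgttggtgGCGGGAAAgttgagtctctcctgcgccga
FANCD2: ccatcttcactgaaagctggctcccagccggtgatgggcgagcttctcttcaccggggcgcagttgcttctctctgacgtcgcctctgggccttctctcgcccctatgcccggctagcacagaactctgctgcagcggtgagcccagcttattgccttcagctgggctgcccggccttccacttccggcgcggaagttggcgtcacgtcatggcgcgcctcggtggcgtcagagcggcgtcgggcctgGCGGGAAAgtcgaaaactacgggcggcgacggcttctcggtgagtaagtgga
FANCA: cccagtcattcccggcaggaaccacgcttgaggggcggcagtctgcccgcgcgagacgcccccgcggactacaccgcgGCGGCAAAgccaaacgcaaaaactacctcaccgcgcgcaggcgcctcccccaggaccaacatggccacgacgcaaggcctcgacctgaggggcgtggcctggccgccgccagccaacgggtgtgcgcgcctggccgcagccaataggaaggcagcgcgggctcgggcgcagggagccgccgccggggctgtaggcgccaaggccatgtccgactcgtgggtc
RMI1: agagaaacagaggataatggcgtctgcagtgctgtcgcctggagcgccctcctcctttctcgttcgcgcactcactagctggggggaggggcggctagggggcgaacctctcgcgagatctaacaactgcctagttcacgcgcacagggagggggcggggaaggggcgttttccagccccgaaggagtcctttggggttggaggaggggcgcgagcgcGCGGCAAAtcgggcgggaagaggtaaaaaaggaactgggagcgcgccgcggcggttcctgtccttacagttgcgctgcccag
FANCC: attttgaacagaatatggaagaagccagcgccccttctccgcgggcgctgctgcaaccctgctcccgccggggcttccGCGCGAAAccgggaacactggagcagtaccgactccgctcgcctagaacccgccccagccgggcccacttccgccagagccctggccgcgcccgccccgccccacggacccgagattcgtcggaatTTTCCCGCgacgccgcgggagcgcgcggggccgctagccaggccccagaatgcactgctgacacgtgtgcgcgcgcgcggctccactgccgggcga
These windows lie at chr1:241847954-241848253, plus strand; chr7:152676092-152676391, minus strand; chr3:10026187-10026486, plus strand; chr16:89816598-89816897, minus strand; chr9:83980555-83980854, plus strand; and chr9:95317660-95317959, minus strand. The match begins 4 bases after the start in EXO1, 21 bases after it in XRCC2, and 2, 172 and 32 bases before it in FANCD2, FANCA and RMI1. In FANCC the matches begin 172 and 46 bases before the start. The cell cycle genes homology region (TTTGAA or TTTAAA) was in 18.8% of member windows and 24% of all windows, and the SMAD element CAGAC was in 43.8% and 45.3%. The CCAAT box (CCAAT) was in 43.8% of member windows, with a Wilson interval (30.7 to 57.7%) that includes the 34.6% of all windows. In the 150 bases before the start alone, the E2F share was 4.17%, with an interval (1.15 to 14%) that includes the 1.8% of all windows. There the CCAAT share was 37.5% (25.2 to 51.6%), against 23.5% of all windows. A match of letters is a description and not a binding site. BRCA1 and BRCA2 windows held none of the E2F letters searched.

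Levels between genes are compared per kilobase of exon, as CPM per kb. In unstimulated MI-spheres the 40 genes ranged from 0.295 CPM per kb for RAD54B, a helicase-like recombination protein, to 19.9 CPM per kb for NBN, with a median of 1.65. For RAD54B, 66.0% of exon bases overlap FSBP, where fragments were left uncounted. Its level per kb is therefore too low, and its place as the lowest gene is uncertain. The median was 1.17 in unstimulated MII-spheres and 2.08 in stimulated ones, while in MI-spheres it was 1.84 after stimulation. As a mean of 3 library medians, MI Ctrl stood at 1.7 and MI TGFβ at 1.82. With plain library totals the MI TGFβ value was 1.56, so the rise in MI-spheres depends on the scaling. MDA-MB-231 libraries stood higher, with medians of 5.71 in WT, 4.59 in SLUG KO, 3.62 in Csi and 2.76 in siSMAD2/3/4. UBE2T, the E2 enzyme of the Fanconi core complex, had the highest level per kb in all 4 groups of that line. EXO1 varied most between groups by ratio, from 0.328 ± 0.0676 CPM per kb (SD, n = 3) in unstimulated MII-spheres to 14.1 ± 2.27 in WT. PALB2 varied least, from 3.65 ± 0.249 in siSMAD2/3/4 to 6.3 ± 0.46 in unstimulated MI-spheres. Growth format and line differ together between spheres and MDA-MB-231, so those levels are described and not tested.

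TGFβ stimulation raised most of the 40 genes in MII-spheres. Of the 40, 29 were higher and 4 were lower at an adjusted p under 0.05 by edgeR's quasi-likelihood test, where 30.0% of all 16396 genes tested were higher and 27.7% were lower. With a log2 fold-change above 1 as well, 16 were higher, where 3.11% of all genes were. The median log2 fold-change of the members was 0.57, against -0.02 over all genes tested. Exonuclease EXO1, polymerase POLQ and the recombination cofactor RAD51AP1 rose most. In this bulk RNA, more cells expressing a gene and more RNA per cell cannot be told apart. The list of 37 S phase genes moved the same way (35 higher, none lower, median log2 fold-change 1.39; summed level 571 to 586 CPM without and 1259 to 1268 CPM with TGFβ), as did the 49 G2/M genes (45 of 48 tested higher, median 1.39). Their part in the result was not tested.

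BRCA1 (ENSG00000012048.23, chr17:43044295-43170245), the ubiquitin ligase that channels breaks into recombination, stood at 8.08, 8.13 and 7.06 CPM in the 3 unstimulated and 26.1, 24.1 and 22.4 CPM in the 3 stimulated MII libraries. Every stimulated library was above every unstimulated one (log2 fold-change ± SE 1.60 ± 0.10, adjusted p = 1.8e-23; later values in brackets are given in the same way). Here and below, overlap of libraries only describes the gene named. The share of all genes without overlap is not given, so a lack of overlap does not set a gene apart. BRCA2 (ENSG00000139618.17, chr13:32315086-32400268), a central mediator of recombination, went from 3.97, 4.72 and 4.11 to 14.8, 18 and 17.9 CPM without overlap (1.93 ± 0.13, adjusted p = 1.1e-22). The helicase BRIP1, a partner of BRCA1, went from 6.16, 5.22 and 5.22 to 17.8, 16.6 and 16.4 CPM (1.59 ± 0.12, adjusted p = 6.4e-20). BARD1, the ring partner of BRCA1, rose by less (0.69 ± 0.08, adjusted p = 8.3e-11). PALB2, the bridge between BRCA1 and BRCA2, was not called, at 26.7, 26.1 and 26.7 and 27, 29.2 and 27.6 CPM (0.04 ± 0.07, adjusted p = 0.63). In all, 4 of the 5 genes of this group were higher, where 30.0% of all genes tested were.

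**Figure D1:**
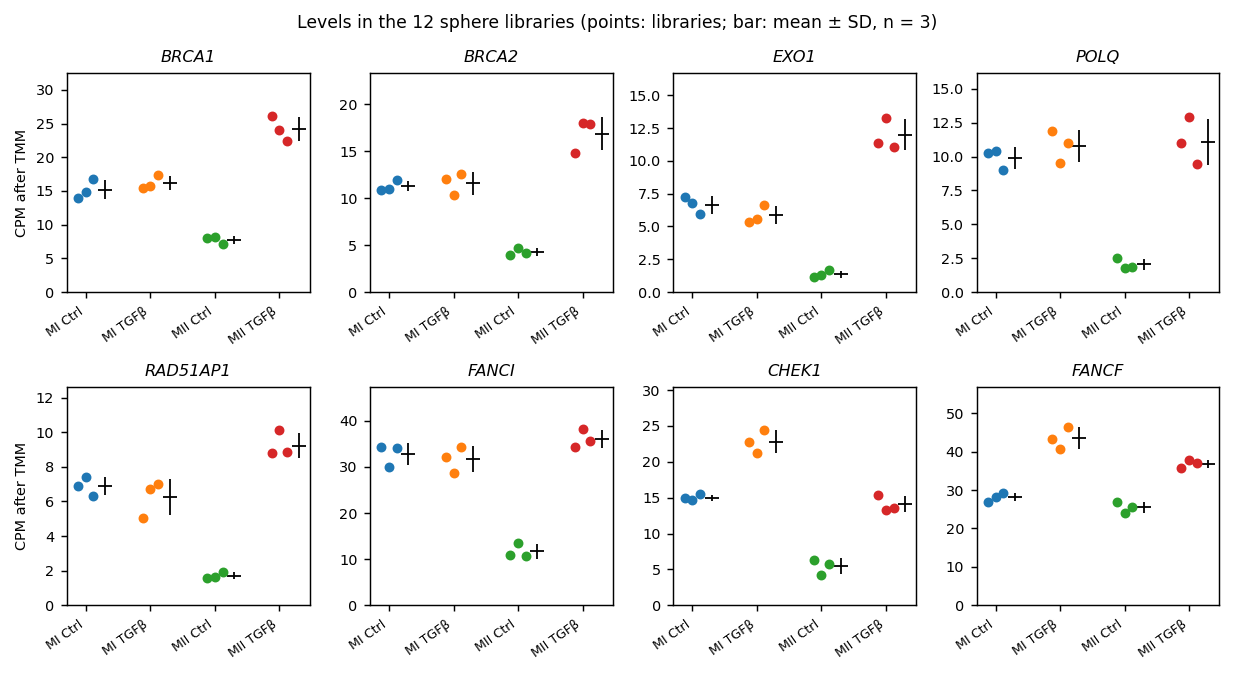
CPM after TMM scaling (vertical axis) of 8 genes in the 12 sphere libraries, by group (horizontal axis); points are libraries and bars give the mean ± SD of 3. All 8 genes have their lowest mean in unstimulated MII-spheres, EXO1 for example at 1.35 ± 0.28 CPM. CHEK1 and FANCF are higher with TGFβ in both lines.

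RAD51B, RAD51C, RAD51D, XRCC2 and XRCC3, a group of related recombination proteins, diverged. XRCC2 stood at 2.19, 1.1 and 1.17 CPM without and 6.97, 5.33 and 6.32 CPM with TGFβ (2.10 ± 0.21, adjusted p = 7.6e-14). RAD51C (0.54 ± 0.12, adjusted p = 7.1e-05) and RAD51D (0.45 ± 0.14, adjusted p = 0.0035) rose by less than 1 log2 unit. RAD51B moved the other way, from 13.6, 11.2 and 12.8 to 8.66, 8.87 and 7.75 CPM, without overlap (-0.59 ± 0.12, adjusted p = 1.3e-05). XRCC3 was not called (0.09 ± 0.13, adjusted p = 0.57), and 76.7% of its exon bases overlap exons of KLC1 on the opposite strand, where fragments were left uncounted. RAD51AP1 (ENSG00000111247.15, chr12:4538798-4560047), a DNA-binding recombination cofactor, went from 1.59, 1.61 and 1.94 to 8.8, 10.1 and 8.84 CPM (2.40 ± 0.17, adjusted p = 4.1e-20). The motor protein RAD54L was low throughout, at 0.993, 0.837 and 1 and 2.17, 2 and 2.58 CPM, with no overlap between conditions (1.24 ± 0.29, adjusted p = 0.00021). RAD54B was called higher (0.64 ± 0.25, adjusted p = 0.024), but shares 66.0% of its exon bases with FSBP, and its call was lost without MII TGFβ replicate 1 (adjusted p = 0.176).

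In the Fanconi core complex and its E2, 6 of 9 genes were higher and 1 was lower. Of all genes tested, 30.0% were higher and 27.7% were lower. UBE2T stood at 4.64, 3.38 and 4.22 CPM without and 13.2, 14 and 13.9 CPM with TGFβ (1.75 ± 0.13, adjusted p = 4e-19). FANCB, a subunit of the catalytic module of the complex, went from 1.13, 0.971 and 0.889 to 2.57, 3.53 and 3.06 CPM (1.59 ± 0.27, adjusted p = 5.8e-07). FANCA went from 4.24, 4.95 and 6.45 to 10.1, 11.9 and 10.3 CPM (1.01 ± 0.14, adjusted p = 1.6e-09). All 3 were above their unstimulated range in every stimulated library. FANCF (log2 fold-change 0.50), FANCG (0.41) and FANCM (0.25) rose by less, FANCE (0.00) and FANCL (0.10) were not called, and FANCC was lower (-0.19 ± 0.08, adjusted p = 0.028) at 27.9, 30 and 27.3 against 28.6, 24.1 and 24.3 CPM, with overlapping libraries. Leaving out 1 library ended the FANCC call for 4 of 6 libraries (Ctrl replicates 1 and 2, TGFβ replicates 2 and 3; adjusted p = 0.0511 to 0.17) and the FANCM call for Ctrl replicates 2 and 3 (0.0769 and 0.0557). Both subunits of the clamp that the complex modifies were higher. FANCI went from 11, 13.5 and 10.7 to 34.4, 38.1 and 35.6 CPM (1.56 ± 0.09, adjusted p = 1e-26), and FANCD2 rose by 0.76 ± 0.09 on the log2 scale.

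Of the 5 end resection genes, 3 were higher and 1 was lower, where 30.0% and 27.7% of all genes tested were. EXO1 (ENSG00000174371.17, chr1:241847967-241895148), which digests long stretches of a strand, went from 1.13, 1.27 and 1.67 to 11.4, 13.3 and 11.1 CPM, the highest log2 fold-change among the 40 (3.11 ± 0.17, adjusted p = 2.3e-26). RBBP8, which starts the trimming, rose by 0.61 ± 0.06, and NBN rose by 0.41 ± 0.05. MRE11, the nuclease of the complex that senses the break, was not called (0.00 ± 0.06). RAD50, its partner, was called lower at 14.2, 13.6 and 13.2 and 10.6, 9.67 and 12.5 CPM (-0.36 ± 0.11, adjusted p = 0.0038). For RAD50, 76.9% of exon bases overlap another gene model, and the call was lost without MII TGFβ replicate 2 (adjusted p = 0.0539).

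Genes for the last steps were also higher in part. The helicase BLM went from 1.66, 2.28 and 2.44 to 8.86, 7.6 and 8.56 CPM (1.91 ± 0.17, adjusted p = 8e-16), and its cofactor RMI2 from 1.59, 1.41 and 1.61 to 2.71, 3.73 and 3.6 CPM (1.10 ± 0.24, adjusted p = 5.8e-05). RMI1, the scaffold of the complex, rose by 0.52 ± 0.14. EME1, the partner of the nuclease MUS81, was at 0.795, 1.1 and 0.389 CPM without and 2.17, 1.53 and 2.24 CPM with TGFβ, from as few as 7 counts in a library (1.25 ± 0.32, adjusted p = 0.00061). MUS81 (-0.08 ± 0.08) and the nuclease scaffold SLX4 (-0.19 ± 0.13) were not called. POLQ (ENSG00000051341.15, chr3:121431431-121545988), the polymerase of an alternative end-joining route, went from 2.52, 1.81 and 1.83 to 11, 12.9 and 9.45 CPM (2.44 ± 0.17, adjusted p = 1e-21).

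Of the kinases, CHEK1 stood at 6.36, 4.18 and 5.72 CPM in unstimulated and 15.4, 13.3 and 13.5 CPM in stimulated MII-spheres, without overlap (1.39 ± 0.13, adjusted p = 4.4e-15). The changes of the other 3 were smaller. CHEK2 (0.47 ± 0.15, adjusted p = 0.0051) and ATR (0.11 ± 0.04, adjusted p = 0.014) were called higher, and ATM was called lower (-0.12 ± 0.04, adjusted p = 0.0076) at 161.0, 157.4 and 162.3 against 150.6, 146.4 and 155.6 CPM. These 3 calls were lost without a single library: CHEK2 and ATR without MII Ctrl replicate 2 (adjusted p = 0.0751 and 0.12), and ATM without MII TGFβ replicate 2 (0.0842), where only 1 of the 40 genes stayed called lower.

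In a list of 62 further recombination and Fanconi genes, 28 of the 59 tested were higher and 9 were lower with TGFβ in MII-spheres. Of all genes tested, 30.0% were higher and 27.7% were lower. The median log2 fold-change of this list was 0.18, against -0.02 over all genes. CLSPN, an adaptor that activates CHEK1, is also on the S phase list, so the lists are not separate. It went from between 1 and 1.19 CPM to between 12.5 and 12.9 CPM (3.50 ± 0.17, adjusted p = 4.6e-29). The nuclease DNA2 went from between 4.97 and 5.56 to between 11.7 and 14.2 CPM (1.25 ± 0.13). The 3 lowest called genes were RAD9A (-0.82 ± 0.11), a subunit of the checkpoint clamp, SWSAP1 (-0.71 ± 0.22) and RECQL5 (-0.52 ± 0.055). The 13 end-joining genes, which rejoin ends without a template, were divided, with 6 higher and 3 lower and a median of -0.02. Among them XRCC6 (0.45), XRCC5 (0.44) and PRKDC (0.38), which form the DNA-dependent protein kinase, were the highest of those called, and POLM (-0.52), POLL (-0.30) and DCLRE1C (-0.17) were the 3 called lower. NHEJ1 (-0.41) and APLF (-0.20) were not called.

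**Figure D2:**
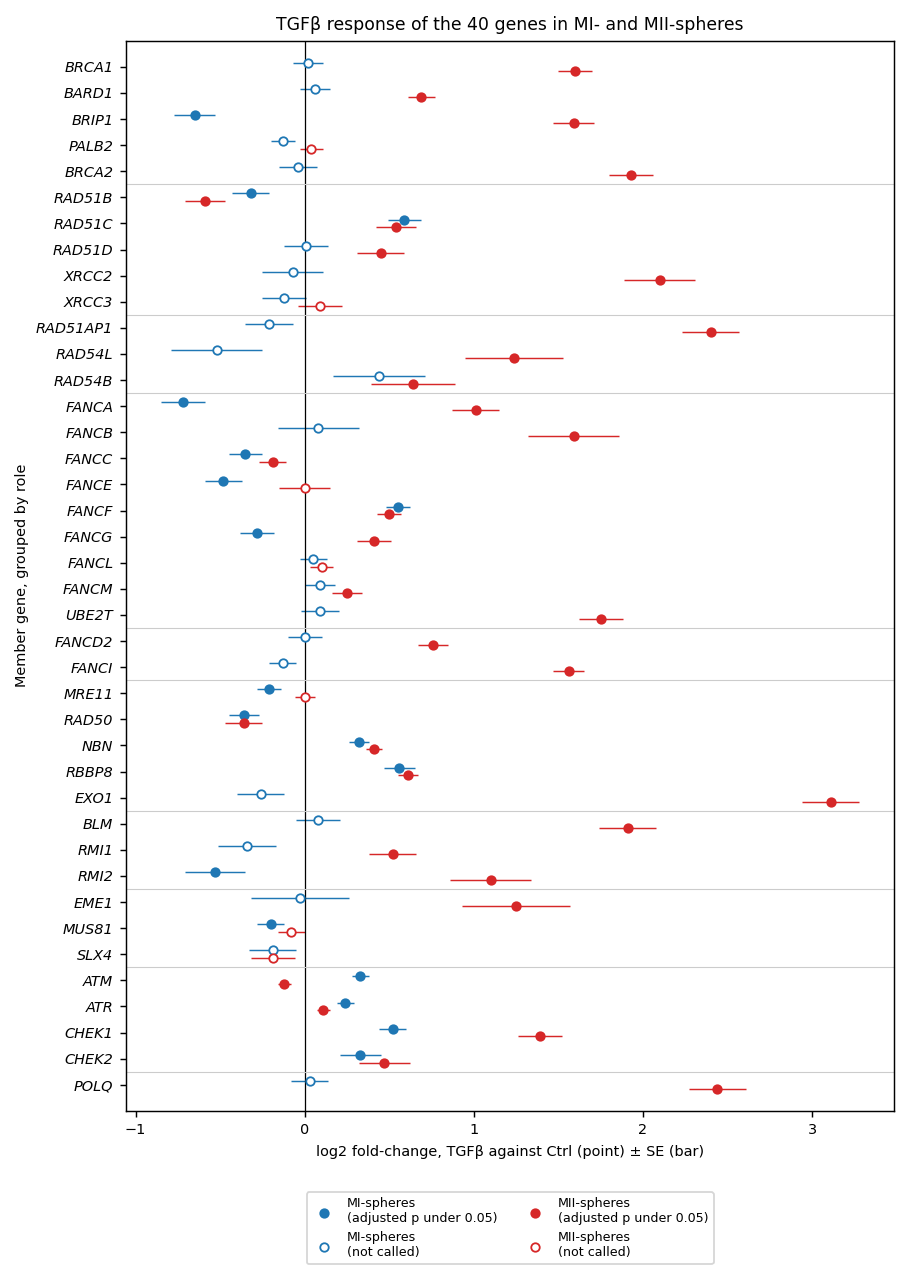
log2 fold-change with TGFβ against Ctrl (horizontal axis; point ± SE) of the 40 genes (vertical axis, grouped by role) in MI-spheres (blue) and MII-spheres (red); filled points have an adjusted p under 0.05. EXO1 reaches 3.11 and POLQ 2.44 in MII-spheres, where MI-spheres show -0.26 and 0.03.

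In MI-spheres, stimulation gave no such shift. Of the 40 genes, 8 were higher and 10 were lower, where 28.7% and 27.4% of all 16863 genes tested were, and the median log2 fold-change was -0.04, against -0.02 over all genes. No member passed a log2 fold-change of 1 in either direction. BRCA1 was at 14, 14.9 and 16.7 CPM without and 15.5, 15.7 and 17.4 CPM with TGFβ (0.02 ± 0.09, adjusted p = 0.88), and BRCA2 at 10.9, 11 and 11.9 and 12, 10.3 and 12.6 CPM (-0.04 ± 0.11, adjusted p = 0.78). Both genes overlapped between conditions. Of the 37 S phase genes, 6 were higher and 6 lower here, and of 48 G2/M genes 24 were higher and 2 lower (median 0.21).

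The strongest falls in MI-spheres were in FANCA, from 9.53, 8.91 and 9.09 to 5.43, 5.29 and 6.9 CPM (-0.72 ± 0.13, adjusted p = 4.3e-05), and in BRIP1, from 13.3, 12.1 and 12 to 7.36, 7.75 and 10 CPM (-0.65 ± 0.12, adjusted p = 5.2e-05). FANCC, FANCE, FANCG, RMI2, RAD50, RAD51B, MRE11 and MUS81 were also called lower, between -0.53 and -0.20 on the log2 scale. The direction of these smaller calls held, but their number was unstable: it fell to 6 lower genes without MI Ctrl replicate 2 or without MI TGFβ replicate 1. RAD51B, FANCG and MUS81 were not called without Ctrl replicate 2 or 3 or TGFβ replicate 1 (adjusted p = 0.0694 to 0.148), MUS81 also not without TGFβ replicate 2 (0.0767), and MRE11 not without Ctrl replicate 2 or TGFβ replicate 1 or 2 (0.0548 to 0.101).

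The genes that rose in MI-spheres came from several roles. RAD51C went from 8.96, 10.3 and 11.1 to 15.3, 15.8 and 16.9 CPM (0.59 ± 0.10, adjusted p = 3.5e-05), and RBBP8 from 48, 49.3 and 54.9 to 75.7, 68 and 93.5 CPM (0.56 ± 0.09, adjusted p = 2.4e-05). FANCF, an adaptor of the core complex, went from 27, 28.3 and 29.1 to 43.4, 40.7 and 46.3 CPM (0.55 ± 0.07, adjusted p = 5.1e-07). In each of these the stimulated libraries lay above all unstimulated ones. CHEK1 went from 14.9, 14.7 and 15.5 to 22.7, 21.2 and 24.4 CPM (0.52 ± 0.08, adjusted p = 1.4e-05) and ATM from 119.3, 120.3 and 128.7 to 161.6, 153.6 and 173.5 CPM (0.33 ± 0.05, adjusted p = 1.7e-05). With ATR (0.24) and CHEK2 (0.33), all 4 checkpoint kinases were called higher, CHEK2 not without Ctrl replicate 2 or 3 or TGFβ replicate 3 (adjusted p = 0.0632 to 0.173). NBN was the other gene called higher (0.32 ± 0.06, adjusted p = 0.00011).

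Whether the lines responded differently was tested as an interaction across the 12 sphere libraries. The response was higher in MII- than in MI-spheres for 21 of the 40 genes and lower for 1, where 12.7% and 9.85% of all 18591 genes were. EXO1 differed by 3.38 ± 0.23, adjusted p = 1.5e-17 on the log2 scale, RAD51AP1 by 2.62 ± 0.22, adjusted p = 8e-14 and POLQ by 2.41 ± 0.20, adjusted p = 5.9e-14. These were the 3 genes with the strongest rise in MII-spheres. In MI-spheres EXO1 stood at 7.26, 6.79 and 5.92 CPM without and 5.38, 5.6 and 6.64 CPM with TGFβ, RAD51AP1 at 6.91, 7.42 and 6.34 and 5.05, 6.72 and 6.98 CPM, and POLQ at 10.3, 10.4 and 8.99 and 11.9, 9.55 and 11 CPM, all with overlap. BRIP1, which fell in MI- and rose in MII-spheres, came next (2.25 ± 0.16, adjusted p = 4.3e-16), and XRCC2 followed (2.18 ± 0.29, adjusted p = 3.4e-08), at 4.75, 4.82 and 3.12 and 5, 3.5 and 4.51 CPM in MI-spheres. BRCA1 differed by 1.59 ± 0.14, adjusted p = 1.6e-13 and BRCA2 by 1.97 ± 0.17, adjusted p = 4.8e-14. The 1 gene with the lower response was ATM (-0.44 ± 0.07, adjusted p = 1e-06), called higher in MI- and lower in MII-spheres. Of the 7 genes called higher in each line on its own, CHEK1 had a called difference (0.88). RBBP8 (0.06 ± 0.10), FANCF (-0.04 ± 0.10), RAD51C (-0.04 ± 0.16), NBN (0.10 ± 0.08), ATR (-0.11 ± 0.07) and CHEK2 (0.15 ± 0.19) had none. In the S phase list 34 of 37 genes, and in the G2/M list 37 of 48, had a higher response in MII-spheres. The call of FANCE (0.49 ± 0.18, adjusted p = 0.045) was lost without 10 of the 12 libraries, all but MII Ctrl and MII TGFβ replicate 2 (adjusted p = 0.0544 to 0.189). That of EME1 (1.30 ± 0.45, adjusted p = 0.028) was lost without MI Ctrl replicate 1 or 2, MI TGFβ replicate 1, MII Ctrl replicate 3 or MII TGFβ replicate 1 or 3 (0.0636 to 0.11).

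Before stimulation, most members were lower in MII- than in MI-spheres. Of the 40, 25 were lower (12 of them beyond a log2 fold-change of -1) and 5 were higher, where 32.6% and 31.8% of all 17862 genes tested were, with a median of -0.36 against 0.02. The unstimulated libraries are the same as in the TGFβ comparisons, so a low unstimulated level enters both. POLQ stood at 10.3, 10.4 and 8.99 CPM in MI- and 2.52, 1.81 and 1.83 CPM in MII-spheres (-2.30 ± 0.15, adjusted p = 4.6e-24). EXO1 followed, at 7.26, 6.79 and 5.92 and 1.13, 1.27 and 1.67 CPM (-2.29 ± 0.19, adjusted p = 1.9e-19). RAD51AP1 stood at 6.91, 7.42 and 6.34 and 1.59, 1.61 and 1.94 CPM (-2.0 ± 0.17, adjusted p = 4.8e-18). None of these 3 overlapped between the lines. XRCC2 stood at 4.75, 4.82 and 3.12 and 2.19, 1.1 and 1.17 CPM (-1.59 ± 0.22, adjusted p = 1.5e-09), and BLM at 6.87, 5.69 and 6.81 and 1.66, 2.28 and 2.44 CPM (-1.56 ± 0.17, adjusted p = 1.1e-13), also without overlap. BRCA2 (-1.36 ± 0.13, adjusted p = 8.7e-17) and BRCA1 (-0.95 ± 0.10, adjusted p = 2.3e-13) were lower as well. Neither overlapped between the lines. Of the S phase list 33 of 37 genes were lower too (median -1.01), and of the G2/M list 39 of 48 (median -1.64), and their part in the result was not tested.

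The exceptions in unstimulated spheres were FANCC, at 14.7, 14.8 and 14.3 CPM in MI- and 27.9, 30 and 27.3 CPM in MII-spheres (0.97 ± 0.08, adjusted p = 4.3e-20), ATM, at 119.3, 120.3 and 128.7 and 161.0, 157.4 and 162.3 CPM (0.40 ± 0.04, adjusted p = 3.2e-15), and ATR, at 116.7, 121.3 and 121.2 and 146.8, 137.9 and 150.8 CPM (0.29 ± 0.04, adjusted p = 1.4e-09). All 3 were higher in MII-spheres without overlap. FANCL, the ubiquitin ligase of the core complex, at 27, 24.3 and 27.5 and 33, 29.9 and 28.4 CPM (0.22 ± 0.07, adjusted p = 0.0038), and RAD51B, at 9.38, 11.7 and 10.9 and 13.6, 11.2 and 12.8 CPM (0.24 ± 0.10, adjusted p = 0.04), were called higher too. The FANCL call was lost without MI Ctrl replicate 2 or MII Ctrl replicate 1 (adjusted p = 0.065 and 0.0599). RAD51B was not called without MI Ctrl replicate 1 or 3 or MII Ctrl replicate 1 or 3 (0.0593 to 0.308), and without MII Ctrl replicate 1 only 3 genes were called higher. Among the lower genes, the calls of PALB2 and RAD51C were lost without MI Ctrl replicate 3 or MII Ctrl replicate 2, that of RAD51D without replicate 1 of either, that of RAD54L without MI Ctrl replicate 2, and that of RBBP8 without MI Ctrl replicate 3 or MII Ctrl replicate 1 or 2 (0.0521 to 0.208).

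After stimulation the order of the lines turned for part of the members. BRCA1, BRCA2, BRIP1, XRCC2, RAD51AP1, RAD54L, FANCA, UBE2T, FANCI and EXO1 were called lower in MII-spheres before stimulation and higher after it. FANCC, FANCL and ATR were called higher in both states, and BARD1, FANCG, RMI1 and MUS81 only after stimulation. Of the 40, 17 were higher and 7 were lower in stimulated MII- than in stimulated MI-spheres, where 31.2% and 31.6% of all 15878 genes were, with a median of 0.25 against 0.00. FANCC was highest (1.15 ± 0.10, adjusted p = 5.2e-11), with 12.1, 12.9 and 11.5 CPM in MI- and 28.6, 24.1 and 24.3 CPM in MII-spheres. EXO1 stood at 5.38, 5.6 and 6.64 CPM in MI- and 11.4, 13.3 and 11.1 CPM in MII-spheres (1.10 ± 0.13, adjusted p = 3.5e-08). BRIP1 stood at 7.36, 7.75 and 10 and 17.8, 16.6 and 16.4 CPM (1.08 ± 0.12, adjusted p = 4.1e-09). In these 3 genes the lines did not overlap. RMI1 stood at 3.73, 4.17 and 4.43 and 8.19, 7 and 7.68 CPM (0.96 ± 0.15, adjusted p = 3.7e-06), and FANCA at 5.43, 5.29 and 6.9 and 10.1, 11.9 and 10.3 CPM (0.95 ± 0.14, adjusted p = 8.2e-07). BRCA1 (0.65 ± 0.09, adjusted p = 4.6e-07) and BRCA2 (0.62 ± 0.11, adjusted p = 1.8e-05) were higher as well. By DESeq2, 12 of the 17 were called higher, without XRCC2, RAD54L, FANCL, FANCI and MUS81. CHEK1 stayed lower in MII-spheres, at 22.7, 21.2 and 24.4 against 15.4, 13.3 and 13.5 CPM (-0.62 ± 0.10, adjusted p = 1.8e-06). CHEK2, at 10.2, 10.5 and 13.8 against 6.9, 7.33 and 7.27 CPM (-0.61 ± 0.13, adjusted p = 0.00025), and NBN, at 150.6, 150.6 and 183.1 against 137.5, 134.2 and 127.0 CPM (-0.20 ± 0.06, adjusted p = 0.0028), were lower too. So were RAD51C, at 15.3, 15.8 and 16.9 against 11.6, 12.6 and 11.7 CPM (-0.34 ± 0.10, adjusted p = 0.0051), and FANCE, at 8.4, 8.43 and 7.96 against 6.29, 5.07 and 5.71 CPM (-0.46 ± 0.14, adjusted p = 0.0061). FANCF (-0.17 ± 0.07, adjusted p = 0.042) and RAD50 (-0.30 ± 0.11, adjusted p = 0.022) completed the 7. The FANCF call was lost without any 1 of 5 libraries, all but MI TGFβ replicate 2 (0.0537 to 0.158), and the RAD50 call without MII TGFβ replicate 1 or 2 (0.0753 and 0.136). The MUS81 call was lost without MI TGFβ replicate 1 (0.0512). The S phase list had 23 of 37 genes higher and 1 lower here, and the G2/M list 9 of 48 higher and 24 lower. POLQ, the lowest in unstimulated MII-spheres, was not called after stimulation (0.12 ± 0.13, adjusted p = 0.41).

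In MDA-MB-231 cells, siRNAs against SMAD2, SMAD3 and SMAD4, which carry the TGFβ signal to the nucleus, lowered most members. Of the 40, 31 were lower and 1 was higher in siSMAD2/3/4 than in Csi libraries, where 19.8% and 16.3% of all 17696 genes tested were. The median log2 fold-change was -0.58, against 0.00 over all genes. Of the 37 S phase genes 36 were lower (median -0.95; summed level 2698 to 2894 CPM in Csi and 1543 to 1582 CPM in siSMAD2/3/4), and of the 49 G2/M genes 48 were (median -0.66), and their part in the result was not tested. Flow cells differed: siSMAD2/3/4 replicate 3 shared that of the Csi libraries, replicates 1 and 2 did not. With flow cell as a term, 28 genes were lower and 2, FANCF and RAD50, were higher, where 14.2% and 10.7% of all genes were. That fit compares replicate 3 alone with Csi, so the single library is assumed to vary like the others. For RAD50, 76.9% of exon bases overlap another gene model, where fragments were left uncounted.

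RAD51AP1 fell most, from 29.3, 33.4 and 32 to 14.6, 12.2 and 12.6 CPM (-1.27 ± 0.08, adjusted p = 4.2e-17). EXO1 went from 27, 27.8 and 26.6 to 13.2, 10.8 and 13 CPM (-1.14 ± 0.08, adjusted p = 2.7e-15), BLM from 16.5, 17.4 and 15.1 to 7.66, 8.2 and 8.05 CPM (-1.04 ± 0.09, adjusted p = 2.6e-12), and XRCC2 from 28.7, 30.9 and 27.5 to 15.1, 13.3 and 15.2 CPM (-1.01 ± 0.08, adjusted p = 2.6e-14). FANCB went from 9.19, 8.59 and 8.82 to 4.59, 4.29 and 4.52 CPM (-0.99 ± 0.11, adjusted p = 2.8e-09). None of the 5 overlapped between the groups. BRCA1 stood at 52.6, 52.5 and 50.8 CPM in Csi and 27, 25.9 and 26 CPM in siSMAD2/3/4 (-0.99 ± 0.06, adjusted p = 1.8e-17; -0.99 ± 0.09 with flow cell as a term). BRCA2 stood at 33.6, 39.1 and 38.3 and 18.2, 17.9 and 21.5 CPM (-0.96 ± 0.07, adjusted p = 9.2e-14; -0.78 ± 0.10 with flow cell as a term). Replicate 3 was the highest of the 3 siSMAD2/3/4 libraries for BRCA2, and was still below every Csi library.

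By role, 4 of 5 genes of the BRCA1-BRCA2 complex, 4 of the 5 genes RAD51B, RAD51C, RAD51D, XRCC2 and XRCC3, all 3 of RAD51AP1, RAD54L and RAD54B, 7 of 9 core complex genes, both clamp genes and all 3 BLM complex genes were lower with siSMAD2/3/4. POLQ (-0.95 ± 0.08) and CHEK1 (-0.51 ± 0.05) were lower as well. Of all genes tested, 19.8% were lower. PALB2 (-0.04 ± 0.09), NBN (-0.05 ± 0.05), SLX4 (-0.14 ± 0.07) and ATM (0.02 ± 0.04) were among the 8 genes not called. FANCF was the 1 gene called higher, at 10.6, 12.1 and 11.3 CPM in Csi and 13.1, 13.2 and 15.2 CPM in siSMAD2/3/4 (0.28 ± 0.09, adjusted p = 0.012), and its call was lost without siSMAD2/3/4 replicate 3 (adjusted p = 0.102). The calls of RAD51C, RAD51D and FANCC were lost with flow cell as a term (0.204, 0.111 and 0.355). MUS81 was not called without Csi replicate 1 or siSMAD2/3/4 replicate 1 or 3 (0.0575 to 0.136), nor FANCC without Csi replicate 3 or siSMAD2/3/4 replicate 2 (0.0634 and 0.18). All 16 genes above a log2 fold-change of 1 with TGFβ in MII-spheres were called lower here, where 31 of all 40 members were. The libraries of these 2 comparisons are distinct, but the cell lines, the culture format and the labelled batch differ. No added TGFβ is given for the Csi and siSMAD2/3/4 libraries, so a response to added TGFβ was not measured there.

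**Figure D3:**
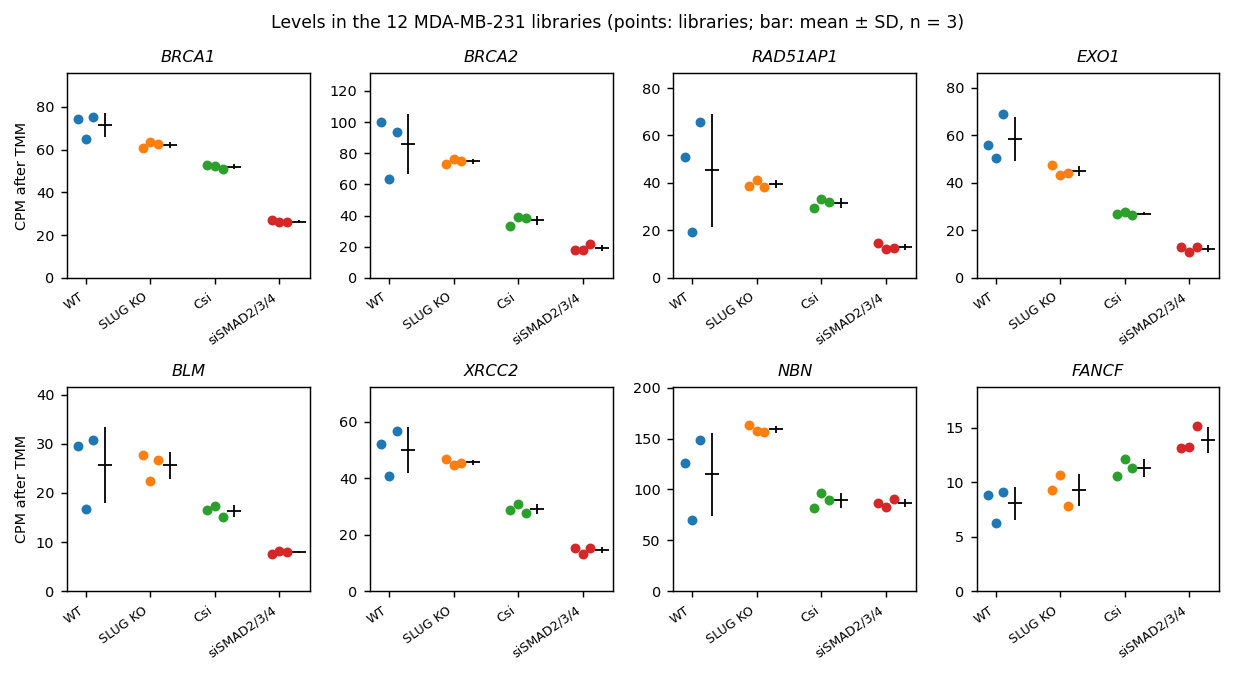
CPM after TMM scaling (vertical axis) of 8 genes in the 12 MDA-MB-231 libraries, by group (horizontal axis); points are libraries and bars give the mean ± SD of 3. BRCA1 falls from 52 ± 1.03 CPM in Csi to 26.3 ± 0.598 CPM in siSMAD2/3/4, NBN does not separate these groups, and WT replicate 2 is the lowest WT library for all 8 genes.

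In the libraries labelled SLUG KO, none of the 40 genes was called against WT by edgeR, where 1.80% of all 17428 genes were lower and 1.34% were higher. At an unadjusted p under 0.05, 4 of the 40 were lower and 1 was higher, where 10.8% and 7.83% of all genes were. DESeq2 called 3 lower, RAD54L, FANCA and RMI1, and none higher, where it called 2.84% of 23008 genes lower and 2.39% higher. The median log2 fold-change was -0.14, against -0.05 over all genes. In the separate fit without WT replicate 2 the median of the members was -0.27. A median over all genes is not given for that fit. Without WT replicate 2, edgeR called 19 lower and 1 higher, where 14.3% and 17.0% of 17909 genes were, and limma voom with sample quality weights, which gave that library a weight of 0.0528, called 18 lower and 1 higher, where 14.9% and 15.5% of all genes were. The count therefore turned on 1 library. BRCA1 was at 74.5, 65 and 75.1 CPM in WT and 60.6, 63.5 and 62.8 CPM in SLUG KO (-0.22 ± 0.16, adjusted p = 0.49; without WT replicate 2 -0.28 ± 0.09, adjusted p = 0.022). BRCA2 was at 100, 63.8 and 93.6 CPM and 73.2, 76.3 and 74.8 CPM (-0.22 ± 0.21, adjusted p = 0.6; without WT replicate 2 -0.38 ± 0.09, adjusted p = 0.0022). WT replicate 2 was the only WT library below the SLUG KO range of BRCA2.

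Without WT replicate 2, RMI1 was lowest, from 23.2, 23.5 and 22.5 CPM in WT to 13.6, 14.7 and 12.3 CPM in SLUG KO (-0.77 ± 0.12, adjusted p = 5.3e-05), a gene for which all 3 WT libraries were close. FANCM followed (-0.72 ± 0.10, adjusted p = 1.8e-05), then RAD54L, at 21.8, 36.6 and 20.6 CPM in WT and 12.2, 14.5 and 13 CPM in SLUG KO (-0.69 ± 0.12, adjusted p = 0.00019), FANCL, at 19.5, 6.22 and 21.5 and 12.6, 14.3 and 13.1 CPM (-0.63 ± 0.12, adjusted p = 0.00037), and FANCA (-0.63 ± 0.09, adjusted p = 5e-05). For RAD54L all WT libraries lay above the SLUG KO range, and for FANCL replicate 2 lay below it. FANCM had 44, 21.9 and 47.2 CPM in WT and 26.4, 29.5 and 27.7 CPM in SLUG KO, so that replicate 2 alone was below the knockout libraries. For FANCA it lay far above the other WT libraries, at 54.1, 105.7 and 55 CPM in the 3 WT and 33.9, 35.9 and 37.1 CPM in the 3 SLUG KO libraries. In that fit 7 of 9 core complex genes and both clamp genes were lower, and none of the 4 kinases was called. Of the lists, 26 of 37 S phase genes and 39 of 49 G2/M genes were lower, where 14.3% of all genes were. RAD50 was the 1 gene higher, at 6.61, 6.34 and 5.84 CPM in WT and 11.3, 9.05 and 8.92 CPM in SLUG KO (0.64 ± 0.16, adjusted p = 0.0046). Of its exon bases, 76.9% overlap another gene model, where fragments were left uncounted. SNAI2 RNA was not lower in the libraries labelled SLUG KO, so it gives no check of these directions.

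**Figure D4:**
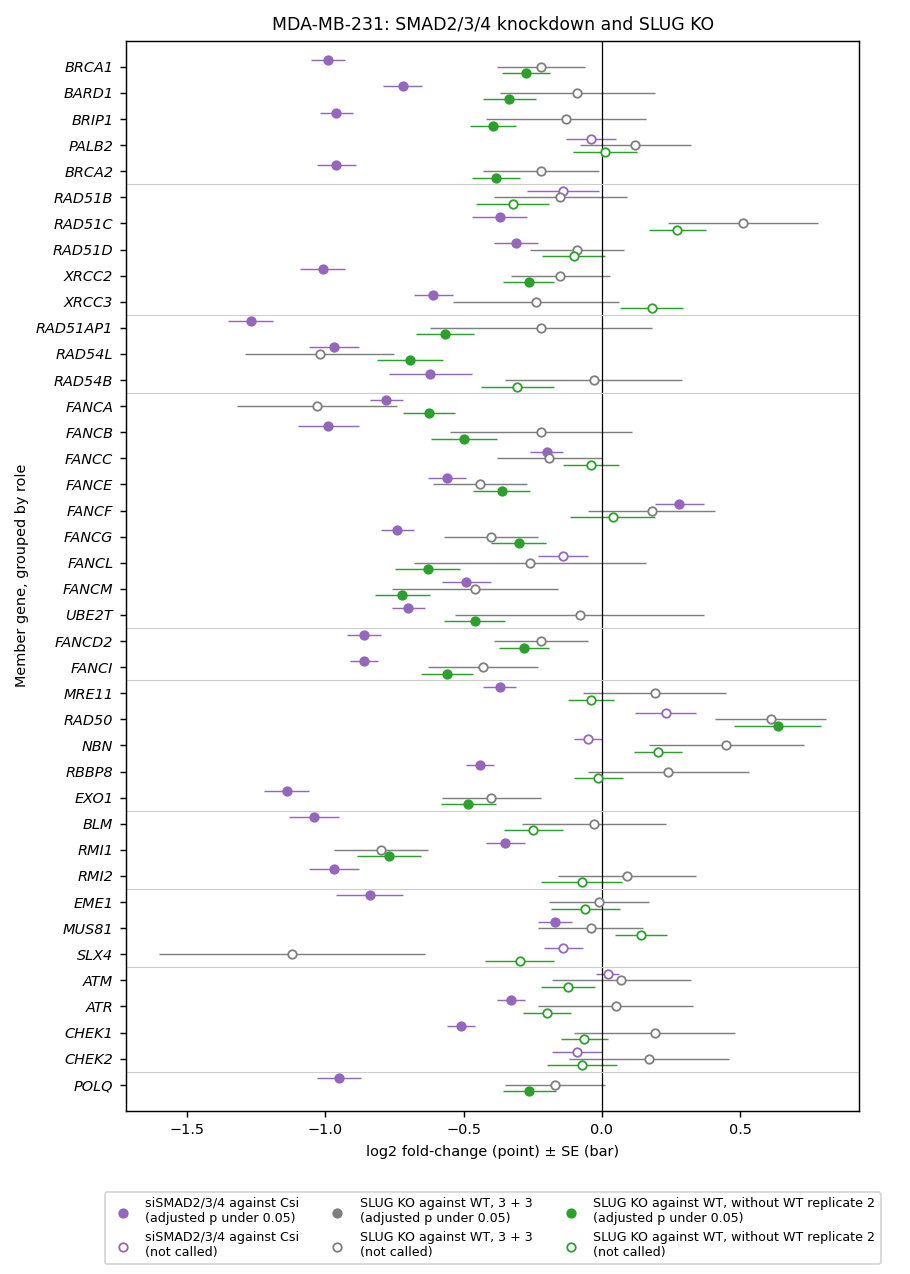
log2 fold-change (horizontal axis; point ± SE) of the 40 genes (vertical axis, grouped by role) for siSMAD2/3/4 against Csi (purple) and for SLUG KO against WT with all 3 WT libraries (gray) and without WT replicate 2 (green); filled points have an adjusted p under 0.05. The purple points reach -1.27 for RAD51AP1, no gray point is filled, and the gray bars are wider than the green.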

How the data were processed

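RNA was sequenced from 24 libraries in 8 groups of 3. The chromatin accessibility data of another 16 samples were not used here. The deposited values are raw fragment counts per gene for 60708 genes. As the authors state and the file headers show, reads were trimmed with Trimmomatic, aligned with STAR and counted over GENCODE 38 exons with featureCounts (Subread 2.0.0), with the requirement that both mates map and that the mapping quality is at least 30. Strand was not used and fragments over 2 genes were not counted, so members that overlap another gene are undercounted, among them RAD50, XRCC3 and RAD54B. The annotation gave a symbol for 60463 genes (99.6%).

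Each comparison was fitted on all genes passing filterByExpr with TMM scaling and edgeR's quasi-likelihood test (edgeR 4.0.16, R 4.3.3), Benjamini-Hochberg adjusted over all genes tested. Called means an adjusted p under 0.05. Fold-changes are log2 ± SE from each comparison's own fit, and adjusted p values throughout come from edgeR unless another tool is named. Levels are CPM after TMM over the 24 libraries, given per library or as mean ± SD (n = 3). Overlap between libraries describes single genes, and its share over all genes is not given. Depth was 14124688 to 38406952 counts per library, so the rarest members rest on few counts. Alternatives were DESeq2 1.42.0, limma 3.58.1 voom weights, other scalings and count filters, a replicate block, flow cell as a term and leaving out each library. The fitting steps were tested on simulated data. Figures and tables used Python 3.11.15, pandas 2.3.3, SciPy 1.17.1 and matplotlib 3.10.9.

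The 40 genes and all lists were chosen with earlier results of these data known. Values of every library are given for members above a log2 fold-change of 1 with TGFβ in MII-spheres, for the 5 with the largest called change in each other comparison, for up to 5 called against the main direction, and for BRCA1 and BRCA2; members named beyond this rule were chosen after their values were seen. Promoter sequences are from RefSeq, GRCh38.p14; gene positions are from GENCODE 38. A gene of the further list and a gene checked for the TGFβ response are not reported here.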

Additional observations from a re-analysis of the deposited data

Results flagged for a closer look

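The response to TGFβ differed between MI- and MII-spheres by edgeR's test of the difference itself for 22 of the 40 genes, and each is listed for that reason. The difference in log2 fold-change, MII minus MI, was above 1 for EXO1 (3.38), RAD51AP1 (2.62), POLQ (2.41), BRIP1 (2.25), XRCC2 (2.18), BRCA2 (1.97), BLM (1.84), RAD54L (1.76), FANCA (1.74), FANCI (1.70), UBE2T (1.67), RMI2 (1.65), BRCA1 (1.59), FANCB (1.52) and EME1 (1.30). It was between 0 and 1 for CHEK1 (0.88), RMI1 (0.88), FANCD2 (0.77), FANCG (0.70), BARD1 (0.64) and FANCE (0.49). For ATM it was -0.44, the only negative difference called. Among the groups of 3 libraries no single library was tested as an outlier, since 3 values are too few for that test.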

How the results depend on the processing

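Of 159 called changes of single genes, 123 stayed called under each alternative run, 36 were lost under at least 1 of them, and none turned its direction. DESeq2 gave 4 genes lower with TGFβ in MI-spheres (10 in edgeR), 1 lower in MII-spheres (4), 3 higher in unstimulated MII- against MI-spheres (5), 12 higher in stimulated ones (17) and 3 lower in SLUG KO (0). In MII-spheres, no filter on low counts and the fit of all 12 sphere libraries each left 2 genes lower. Voom weights gave 1 higher and 18 lower in SLUG KO, and flow cell as a term gave 2 higher in siSMAD2/3/4. Leaving out 1 library at a time gave, as higher and lower genes, 7 to 9 and 6 to 12 with TGFβ in MI-spheres, 26 to 29 and 1 to 4 in MII-spheres, 19 to 21 and 1 in the interaction, 3 to 5 and 23 to 26 in unstimulated lines, 16 to 19 and 5 to 9 in stimulated lines, 0 to 1 and 0 to 19 in SLUG KO (the upper values without WT replicate 2), and 0 to 2 and 30 to 31 in siSMAD2/3/4. The cause of these shifts was not tested. Libraries with the same number did not deviate together (r from -0.123 to 0.032), so they were not treated as pairs. A replicate block gave 8 higher and 10 lower in MI-spheres, 29 and 4 in MII-spheres, 20 and 1 in the interaction, 5 and 26 in unstimulated and 17 and 6 in stimulated lines, 0 and 0 in SLUG KO, and 1 and 31 in siSMAD2/3/4. In the 150 bases before the start, 4.17% of member windows held an E2F match, against 1.8% of all windows. The cell cycle genes homology region was in 4.17% of member and 12.6% of all windows. For the CCAAT box the shares were 37.5% and 23.5%, and for the SMAD element 16.7% and 23.6%. The median member level per library (CPM per kb, mean of 3) with plain library totals was 1.56 in MI TGFβ (1.82 with TMM), 1.28 in MII Ctrl (1.19), 2.01 in MII TGFβ (2.11) and 4.72 in SLUG KO (4.57). With 3 libraries a group, small changes in genes of few counts, such as EME1 and RAD54B, are the least certain.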
